A study of Mus musculus with 8 samples.

Results

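The mitochondrial ribosomal protein genes were followed in 8 RNA-seq libraries of mouse haematopoietic stem cells (HSCs), the cells of the bone marrow that give rise to all blood lineages. Members were the rows of the gene table whose symbol is Mrpl or Mrps followed by a number, with pseudogenes left out. That gave 78 genes of 19909 in all, 49 named for the large subunit (Mrpl) and 29 for the small subunit (Mrps), and all 78 had an adjusted p-value in each of the 3 contrasts. The 5 pseudogenes left out were Mrpl23-ps1, Mrpl27-ps, Mrpl48-ps, Mrps36-ps1 and Mrps36-ps2.

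All donors were homozygous for a GFP-LC3 reporter (Gfplc3/Gfplc3) and sampled at steady state, so the young controls carried it too. The reporter joins green fluorescent protein to LC3, which coats autophagosomes and is itself degraded when they are, so that its signal falls with active autophagy. The young group was 2 libraries of unfractionated HSCs from mice of 8 to 12 weeks. The AThi group was 3 libraries of the 33% of old HSCs with the least GFP, from mice older than 24 months, and the ATlo group was 3 libraries of the 33% with the most GFP, paired with the AThi libraries by the labels. Because young cells were not gated on GFP, age and gate cannot be told apart in a contrast against young. The gate itself is a level of the reporter, and in bulk RNA fewer cells of a type and less RNA per cell cannot be told apart. Library columns carry the tags D11 and D12 for young and O10, O11 and O12 in each old fraction. Values below are given in that order.

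Mitochondrial ribosomes (mitoribosomes) translate the few proteins encoded by mitochondrial DNA, which are core subunits of the respiratory chain and ATP synthase. Their 2 ribosomal RNAs are made in the mitochondrion, whereas every one of their proteins is encoded in the nucleus, made in the cytosol and imported. HSCs are known for low reliance on mitochondrial respiration at rest and for a need of mitochondrial activity when they leave quiescence. Some names do not match the place of the protein. Mrps18a and Mrps30 sit in the large subunit, and Mrps36 is now known as a component of the alpha-ketoglutarate dehydrogenase complex of the citric acid cycle. The split used here follows the names.

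The genes lie on 17 chromosomes, with 11 of them on chromosome 11. In the GENCODE annotation of the build used for the libraries (GRCm38), 18 of 78 members (23.1%) have a divergent neighbour. This means the start of another protein-coding gene within 1 kb upstream on the opposite strand. The share was 10.2% of the 13319 genes of the gene table annotated as protein-coding. Among these neighbours are Sars2 beside Mrps12, which encodes the mitochondrial seryl-tRNA synthetase, Psma2, a proteasome subunit, beside Mrpl32, and Fau, whose product includes a cytosolic ribosomal protein, beside Mrpl49. None of the 8 members called below is among the 18. Exons of 33 members overlap an exon of another gene, 28 on the opposite strand and 8 on the same strand. No source used here gives the strand setting of the counting, so reads of such pairs may not be separable.

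Promoter windows running from 250 bases before to 50 bases after the gene start were found for 69 of the 78 members in the RefSeq table (GRCm38.p6). They were searched on both strands for the core letters of 4 factors known to act at housekeeping and mitochondrial genes. These were NRF1 (GCGCA, any base, then GCGC), the ETS family including GABP (CCGGAAG), YY1 (AAGATGG) and the E-box (CACGTG). Matches of different motifs may overlap and were counted separately. The ETS letters occurred in 24 member windows (34.8%), beside 18.0% of 10916 windows of tested genes. The YY1 letters occurred in 13 (18.8% beside 7.2%) and the NRF1 letters in 13 (18.8% beside 10.2%). The E-box occurred in 5 (7.25% beside 10.1%). At least 1 of the 4 was present in 43 of the 69 windows (62.3%), beside 37.8% of all windows. The median GC content was 58.3% in member windows and 60.3% in all. A match is a description of letters and was not tested as a binding site.

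The windows shown are those of called members that hold a match, with the matched letters in capitals. Mrps24 lies at chr11:5703983-5715680 (minus strand, window chr11:5707652-5707951) and Mrps26 at chr2:130563742-130568695 (plus strand, window chr2:130563507-130563806). Mrpl14 lies at chr17:45686322-45698495 (plus strand, window chr17:45686099-45686398), Mrpl21 at chr19:3282901-3292837 (plus strand, window chr19:3282792-3283091) and Mrpl42 at chr10:95480805-95501940 (minus strand, window chr10:95501900-95502199). Windows are placed by the RefSeq gene start, which for Mrps24, Mrps26, Mrpl14 and Mrpl21 lies inside the span of the GENCODE gene. It lies furthest inside for Mrps24. Each window is written 5′ to 3′ along the gene's own strand. In Mrps24 and Mrpl42 the capitals are a YY1 match after the RefSeq start, in Mrps26 an ETS match on the reverse strand stands before 2 overlapping NRF1 matches, in Mrpl14 the capitals are an NRF1 match and in Mrpl21 an ETS match on the reverse strand.
Mrps24: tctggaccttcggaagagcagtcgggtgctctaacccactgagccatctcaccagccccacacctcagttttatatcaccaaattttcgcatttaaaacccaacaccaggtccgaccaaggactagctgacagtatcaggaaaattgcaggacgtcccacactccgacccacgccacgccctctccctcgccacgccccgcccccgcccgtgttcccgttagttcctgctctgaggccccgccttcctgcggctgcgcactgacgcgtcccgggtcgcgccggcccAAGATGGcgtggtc
Mrps26: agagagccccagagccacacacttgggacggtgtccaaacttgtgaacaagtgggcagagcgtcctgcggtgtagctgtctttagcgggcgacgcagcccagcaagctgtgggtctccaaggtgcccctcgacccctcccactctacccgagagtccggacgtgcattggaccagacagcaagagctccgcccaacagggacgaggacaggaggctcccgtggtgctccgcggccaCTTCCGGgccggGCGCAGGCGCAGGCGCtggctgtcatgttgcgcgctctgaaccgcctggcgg
Mrpl14: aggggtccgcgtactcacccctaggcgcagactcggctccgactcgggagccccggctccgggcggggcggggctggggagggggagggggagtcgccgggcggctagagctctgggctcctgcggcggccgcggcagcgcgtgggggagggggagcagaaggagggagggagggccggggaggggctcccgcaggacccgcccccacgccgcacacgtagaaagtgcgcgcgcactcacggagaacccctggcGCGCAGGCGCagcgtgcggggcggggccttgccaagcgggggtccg
Mrpl21: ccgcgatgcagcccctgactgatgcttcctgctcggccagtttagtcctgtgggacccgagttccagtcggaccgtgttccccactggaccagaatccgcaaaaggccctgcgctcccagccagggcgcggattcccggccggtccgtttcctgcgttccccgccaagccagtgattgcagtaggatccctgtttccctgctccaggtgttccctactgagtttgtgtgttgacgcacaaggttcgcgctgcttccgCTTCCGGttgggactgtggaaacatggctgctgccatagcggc
Mrpl42: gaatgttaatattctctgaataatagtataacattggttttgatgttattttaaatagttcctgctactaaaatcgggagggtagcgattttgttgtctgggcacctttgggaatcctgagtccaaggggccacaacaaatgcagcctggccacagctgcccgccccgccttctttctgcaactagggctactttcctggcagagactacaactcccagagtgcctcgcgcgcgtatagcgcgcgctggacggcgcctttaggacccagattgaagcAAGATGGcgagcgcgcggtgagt
The windows of Mrpl28 and Mrps36, which were also called, held none of the 4 motifs. Among the 7 called members with a window, the ETS, NRF1 and YY1 letters each occurred in 2 and the E-box in 0. In AThi against ATlo the median log2 difference was -0.25 in the 24 members with the ETS letters and -0.34 in the others, and -0.21 with the NRF1 letters and -0.33 without. It was -0.33 with and -0.31 without the YY1 letters, and the same pair of values for the E-box. No test was made of these differences.

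Recovered read totals ran from 33960216 to 61341946 per library, and the 3 ATlo libraries were the deepest. The member with the fewest reads in any library was Mrpl38, with 46 in AThi O10. All 10 HSC markers chosen for this report were detected in every library. Their summed normalized count was 114434 to 140660 in AThi, 84542 to 107702 in ATlo and 118932 to 124649 in young. B cell markers, of which 6 of 10 are rows of the table, summed to 16251, 32183 and 15334 in the libraries tagged 12 (young, AThi, ATlo) and to between 1943 and 5133 in the other 5. Cd79a, a defining B cell gene, was at 0 in young D11, AThi O10 and ATlo O11. The proliferation gene Mki67 was at 14140, 14501 and 20394 normalized counts in AThi, 40270, 42789 and 47738 in ATlo, and 16825 and 23152 in young. Progenitor markers, of which 3 of 4 are rows, summed to 2916 to 3619 in AThi, 3696 to 5181 in ATlo, and 7020 and 5352 in young. Nkg7, the 1 T and NK marker of 6 with a row, was at 243 to 392 in AThi, 394 to 533 in ATlo, and 345 and 448 in young. The part of cycling, progenitors or T and NK cells in the results below was not tested, and values without the libraries tagged 12 are given with the results.

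The summed level of the mitochondrial ribosomal protein genes was lowest in AThi and highest in ATlo. For the large subunit the normalized counts summed to 47485 and 49878 in young, to 43339, 44073 and 46318 in AThi, and to 50325, 53381 and 54455 in ATlo. The 3 groups did not overlap. For the small subunit the sums were 25449 and 25930 in young HSCs, 21458, 21720 and 24726 in AThi, and 27671, 27562 and 28161 in ATlo. Again no group overlapped another, and the AThi library nearest to young was O12. That library also had the most B cell marker RNA, and a link between them was not tested. As a share of reads outside ribosomal RNA, all 78 members together took 0.241% ± 0.007 in young (SD, n = 2), 0.215% ± 0.012 in AThi (SD, n = 3) and 0.257% ± 0.007 in ATlo (SD, n = 3). For the large subunit alone this share was 0.1618% in young D12 and 0.1614% in ATlo O10, so young and ATlo overlapped on this scale. The ratio of the AThi to the ATlo share was 0.848 for the large and 0.817 for the small subunit. No test was made on these sums, which weight the most abundant members.

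**Figure D1:**
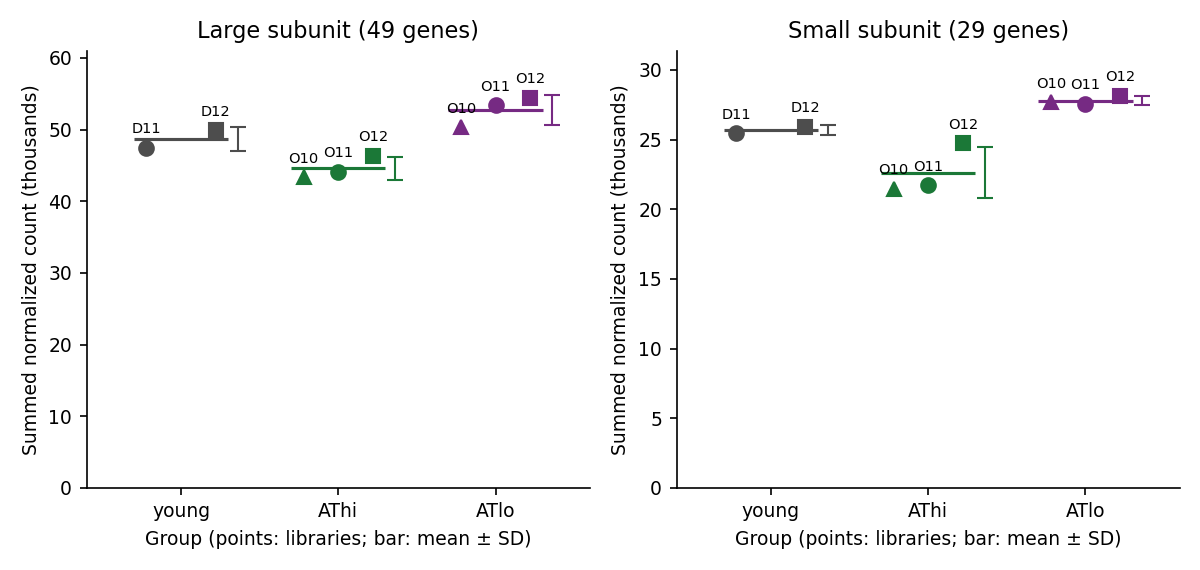
Summed normalized count (vertical axis) of the 49 large-subunit and 29 small-subunit genes in each library, with marker shape and label giving the library tag, the horizontal bar the group mean and the error bar ± SD. In both panels the AThi libraries lie below young and the ATlo libraries above, from 43339 to 54455 for the large subunit and from 21458 to 28161 for the small.

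Levels per gene spanned a wide range. Per kilobase of annotated exon, averaged over the libraries, the highest normalized counts were those of Mrpl52 (2951 per kb) and Mrpl34 (2093 per kb), both large-subunit proteins. The lowest were Mrpl48 (78.7 per kb) and Mrps35 (92.0 per kb). Annotated exons of Mrpl48 and Mrps35 total 8152 and 8631 bases, which includes exons that these cells may not use. Mrpl52 had 2349 and 3008 normalized counts in young HSCs, 3348, 3654 and 3139 in AThi, and 3340, 3658 and 3688 in ATlo. The 2 old fractions overlapped, and all 6 old libraries lay above both young ones. In the authors' deposited table Mrpl52 was not called against young in AThi (0.34, SE 0.16, adjusted p = 0.285) or in ATlo (0.41, SE 0.16, adjusted p = 0.130). Mrpl34 was at 1249 and 1250 in young HSCs, 1312, 1441 and 907 in AThi, and 1397, 1186 and 1423 in ATlo, with the groups overlapping. Mrpl48 was at 825 and 729 in young HSCs, 647, 584 and 596 in AThi, and 591, 562 and 599 in ATlo, so both young libraries lay above all 6 old ones. In the authors' deposited table Mrpl48 was not called against young in AThi (-0.35, SE 0.20, adjusted p = 0.457) or in ATlo (-0.41, SE 0.20, adjusted p = 0.297).

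The first comparison sets the 2 ends of the reporter gate in old HSCs against each other, cells with the least GFP (AThi) and cells with the most (ATlo). In AThi against ATlo, 8 of the 78 members were lower and 0 were higher at an adjusted p below 0.05 in the authors' deposited table (DESeq2 Wald test, Benjamini-Hochberg adjustment over all genes). Over all genes tested 7.9% were called, 4.43% lower and 3.47% higher. The 8 were Mrpl14, Mrpl21, Mrpl28 and Mrpl42 of the large subunit (4 of 49) and Mrps24, Mrps26, Mrps28 and Mrps36 of the small subunit (4 of 29), by name. Without Mrps36, the alpha-ketoglutarate dehydrogenase component, 7 of 77 members were called (9.09%), beside the 7.9% of all genes. At an unadjusted p below 0.05 there were 15 of 78, beside 18.0% of all genes. The quasi-likelihood test of edgeR on the recovered reads called 0 of the 78, where it called 1.41% of all genes. Its lowest adjusted p was 0.061, and 14 members had an unadjusted p below 0.05, beside 15.4% of all genes.

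Most of the difference was a small shift shared by many members. The deposited log2 fold change was below 0 for 65 of 78 members in the authors' deposited table, beside 47.9% of all genes tested. These were 41 of 49 large-subunit and 24 of 29 small-subunit genes. The median was -0.30 over all members, -0.27 for the large subunit and -0.32 for the small, in the authors' deposited table, beside 0.02 for all genes tested. The values ran from -1.13 for Mrps24 to 0.56 for Mrpl37 in the authors' deposited table, with standard errors between 0.14 and 0.49. All 3 AThi libraries lay below all 3 ATlo libraries for 17 members, beside 11.6% of all genes, and above them for 1 (Mrps5), beside 10.7%. Within the pairs of equal tag, 53, 56 and 60 of the 78 members were lower in AThi for O10, O11 and O12, beside 49.1%, 48.0% and 49.3% of all genes. The direction was the same in all 3 pairs for 27 members lower in AThi, beside 20.2% of all genes, and for 2 higher, beside 21.7%. The direction was the majority one in each pair, while few single members passed the test.

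**Figure D2:**
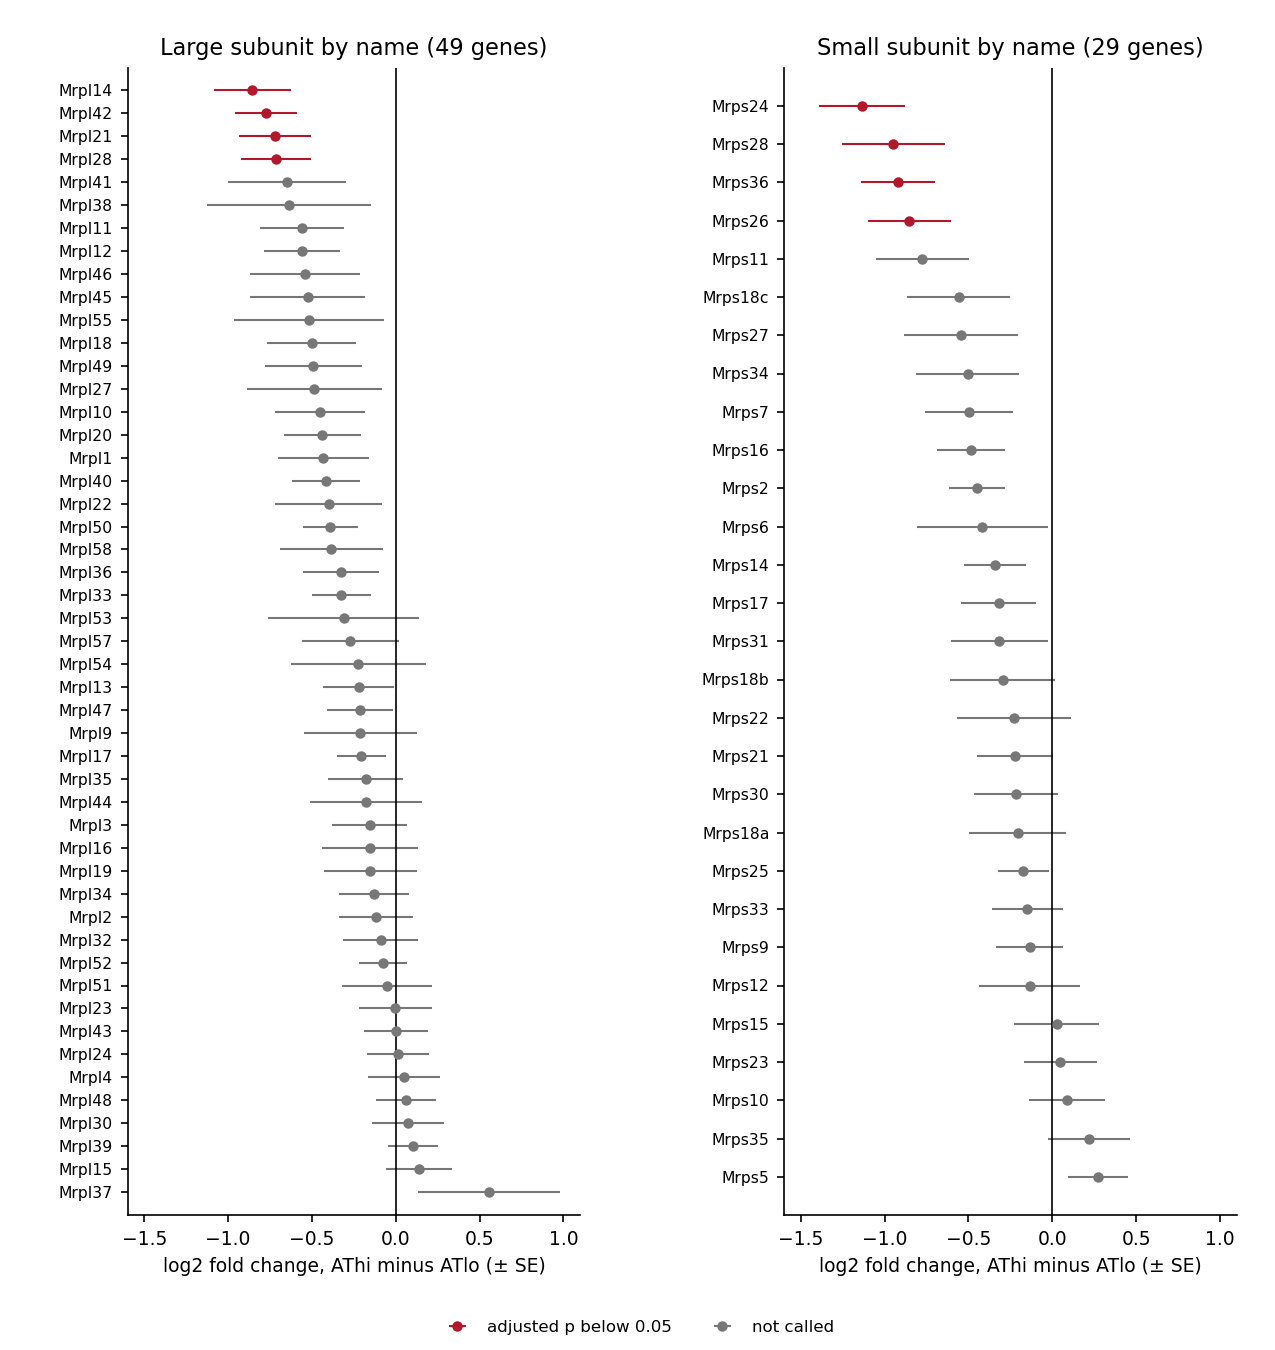
Deposited log2 fold change of AThi minus ATlo (horizontal axis, bars ± SE) for each of the 49 large-subunit genes (left) and 29 small-subunit genes (right), with members at an adjusted p below 0.05 in red. Points lie left of 0 for 41 and 24 genes, and the 8 red points are the lowest values of their panels.

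Of the small-subunit members, Mrps24 had the largest difference and the lowest adjusted p. Its level was 456 and 694 normalized counts in young HSCs, 419, 410 and 619 in AThi, and 1141, 1007 and 1032 in ATlo. All ATlo libraries lay above the other 5, and AThi overlapped young. The log2 fold change in the authors' deposited table was -1.13 (adjusted p = 0.0005, SE 0.26), a level 2.19-fold lower in AThi. Exons of Mrps24 overlap exons of Urgcp on the same strand. The log2 fold change of Urgcp in the authors' deposited table was 0.35 and not called.

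Mrps36, the alpha-ketoglutarate dehydrogenase component, had 403 and 436 normalized counts in young HSCs, 287, 338 and 382 in AThi, and 636, 603 and 666 in ATlo. The 3 groups did not overlap. The change in the authors' deposited table was -0.92 (adjusted p = 0.0013, SE 0.22). Reads of its 2 pseudogenes could be shared with it. Mrps36-ps1 and Mrps36-ps2 were at -1.10 and -1.33 in the authors' deposited table and were not called.

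Mrps26 had 251 and 293 normalized counts in young HSCs, 319, 304 and 333 in AThi, and 682, 483 and 561 in ATlo. Here AThi was slightly above young and ATlo was above both. The authors' deposited table gave -0.85 (adjusted p = 0.0116, SE 0.25) for AThi against ATlo. With the pair as a block in the fit of the 6 old libraries the adjusted p of DESeq2 was 0.053, so the call was lost, and over 19 alternative settings it ran from 0.0116 to 0.279. Mrps28 had 622 and 586 normalized counts in young HSCs, 272, 493 and 506 in AThi, and 768, 624 and 1067 in ATlo. Of the 8 it had the largest standard error, with a change of -0.95 (adjusted p = 0.0306, SE 0.31) in the authors' deposited table.

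Among large-subunit members, Mrpl42 had 1347 and 1164 normalized counts in young HSCs, 874, 1166 and 1110 in AThi, and 1545, 1883 and 1957 in ATlo. ATlo lay above the other groups, which overlapped. Its change was -0.77 (adjusted p = 0.0012, SE 0.19) in the authors' deposited table. Mrpl14, which lies at the face of the large subunit and binds the assembly factor Malsu1, had 542 and 672 in young HSCs, 413, 381 and 345 in AThi, and 797, 587 and 675 in ATlo. It was the called large-subunit member in which AThi lay furthest below young, and its change was -0.86 (adjusted p = 0.0052, SE 0.23) in the authors' deposited table.

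Mrpl28 had 564 and 796 normalized counts in young HSCs, 492, 548 and 495 in AThi, and 850, 876 and 796 in ATlo. The old fractions did not overlap, with a change of -0.72 (adjusted p = 0.0128, SE 0.21) in the authors' deposited table. Mrpl21 had 661 and 881 in young HSCs, 704, 593 and 651 in AThi, and 1240, 1077 and 896 in ATlo. Its change was also -0.72 (adjusted p = 0.0151, SE 0.21) in the authors' deposited table. Exons of Mrpl14, Mrpl21 and Mrps26 overlap genes on the opposite strand, Tmem63b, Ighmbp2 and 4930473A02Rik, which were at 0.79, 0.42 and 0.10 in the authors' deposited table and not called. Among the 45 members whose exons overlap no other gene, 4 were called lower (Mrpl28, Mrpl42, Mrps28 and Mrps36) and 0 higher. That is 8.89%, beside 7.9% of all genes tested called in either direction and 4.43% called lower.

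**Figure D3:**
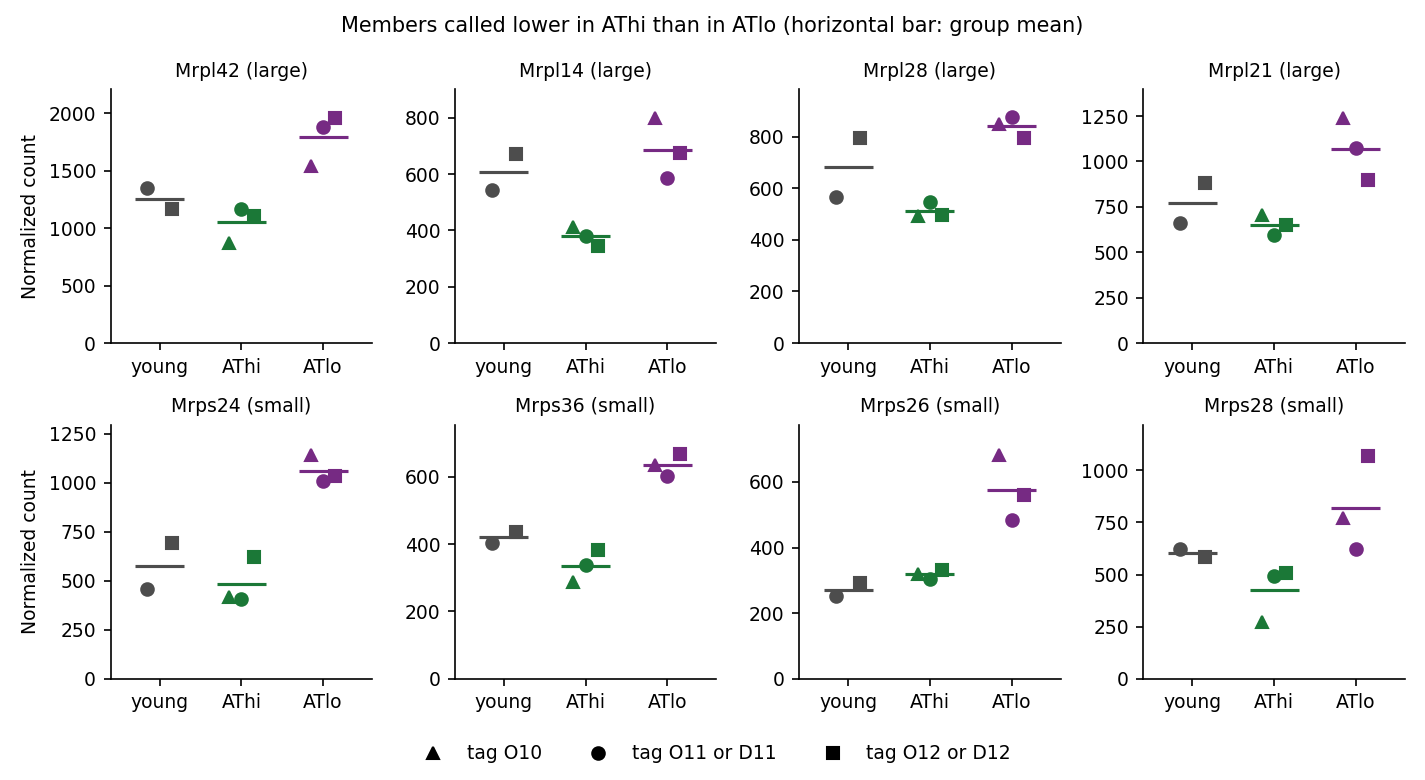
Normalized count (vertical axis, from 0) of the 8 members called lower in AThi than in ATlo, per library, with marker shape for the tag and a horizontal bar for the group mean. In every panel the 3 ATlo points lie above the 3 AThi points, by the widest margin for Mrps24 (1007 to 1141 against 410 to 619).

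For fits with libraries left out, the share of all genes called is not given here, so a fall cannot be read as particular to these members. The number called changed with the libraries left out. It was 3 without ATlo O10, 5 without AThi O10 or without ATlo O12, and 6 to 8 without any other library. Mrps24, Mrpl42 and Mrps36 were called in all 8 fits that leave out 1 library, Mrpl14 in 7, Mrps28 in 5, Mrpl21 and Mrps26 in 4, and Mrpl28 in 3. Without the 3 libraries tagged 12, which carried the most B cell marker RNA, only Mrps24 remained below the threshold in the DESeq2 refit (adjusted p = 0.0018), on a fit of 5 libraries. Over 19 alternative settings the adjusted p of Mrps24 ran from 1.8e-05 to 0.0664, with the values above 0.05 all from edgeR. The median of the 78 was -0.30 in that fit, as with all libraries.

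Other members with known roles were not called. Mrpl12, the stalk protein that also binds the mitochondrial RNA polymerase, had 1074 and 1115 normalized counts in young HSCs, 747, 897 and 1286 in AThi, and 1250, 1524 and 1549 in ATlo. AThi was lower in every pair, and AThi O12 overlapped ATlo O10. In the authors' deposited table its change was -0.56 (adjusted p = 0.114, SE 0.23), whereas with the pair as a block the adjusted p of DESeq2 was 0.0388. It was also called without AThi O12, and in none of the other settings tried. Mrps12, a protein of the decoding centre, had 380 and 616 in young HSCs, 367, 569 and 435 in AThi, and 394, 564 and 548 in ATlo. Its groups overlapped throughout, at -0.13 (SE 0.30) in the authors' deposited table.

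Mrpl58 is a peptidyl-tRNA hydrolase that releases stalled chains and is built into the large subunit. It had 455 and 651 normalized counts in young HSCs, 348, 362 and 416 in AThi, and 507, 330 and 636 in ATlo. AThi lay below young but overlapped ATlo, and the authors' deposited table gave -0.39 (SE 0.31) against ATlo. None of the 3 relatives of bacterial S18 was called. Mrps18c, at 446, 322 and 417 in AThi and 761, 458 and 526 in ATlo, did not overlap and stood at -0.56 (adjusted p = 0.302, SE 0.31) in the authors' deposited table. Mrps18a and Mrps18b stood at -0.21 and -0.29, and Mrps30, with Mrps18a a large-subunit protein despite its name, at -0.22, in the authors' deposited table.

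Mrpl46 and Mrps11 are 2 members that lie head to head on chromosome 7 with overlapping exons, and they are named here after their values were seen. Mrpl46 had 403 and 465 normalized counts in young HSCs, 354, 178 and 336 in AThi, and 357, 411 and 494 in ATlo. Mrps11 had 316 and 209 in young HSCs, 249, 262 and 250 in AThi, and 491, 429 and 382 in ATlo. Neither was called at -0.54 (SE 0.33) and -0.77 (adjusted p = 0.0636, SE 0.28) in the authors' deposited table, although in both the old fractions did not overlap.

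A few members went the other way. Mrps5 had 1159 and 1345 normalized counts in young HSCs, 1115, 1112 and 1400 in AThi, and 1094, 994 and 922 in ATlo. It was the 1 member with all AThi above all ATlo libraries, at 0.27 (adjusted p = 0.436, SE 0.18) in the authors' deposited table. Mrps35 had 981, 718 and 870 in AThi and 870, 530 and 810 in ATlo, at 0.22 (SE 0.24) in the authors' deposited table. Mrpl37 had the highest value, 0.56 (adjusted p = 0.521, SE 0.42) in the authors' deposited table, but its libraries were scattered. It had 701 and 298 normalized counts in young HSCs, 799, 319 and 527 in AThi, and 258, 395 and 465 in ATlo. Mrpl15 stood at 0.14 (SE 0.20) in the authors' deposited table, with 1721, 1417 and 1179 in AThi and 1195, 1466 and 1264 in ATlo.

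The second comparison sets AThi of old mice against unfractionated HSCs of young mice. By the DESeq2 test of the authors' deposited table no member was called (0 of 78), beside 5.04% of all genes (1.91% lower and 3.13% higher), and 11 had an unadjusted p below 0.05, beside 13.8%. edgeR also called 0, beside 1.21% of all genes, with 9 members at an unadjusted p below 0.05, beside 11.6%. The log2 fold change was below 0 for 52 of 78 members in the authors' deposited table, beside 50.0% of all genes, with medians of -0.12 for the large and -0.25 for the small subunit. All AThi libraries lay below both young libraries for 20 members, beside 14.2% of all genes, and above for 5, beside 13.9%. The lowest value was that of Mrpl38, with 471 and 290 normalized counts in young and 67, 297 and 229 in AThi, at -0.94 (adjusted p = 0.464, SE 0.54) in the authors' deposited table.

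The third comparison sets ATlo against young. Mrps24 and Mrps26 were higher in ATlo and 0 members were lower in the authors' deposited table, beside 2.37% and 1.98% of all genes, or 4.34% in either direction. Mrps26 stood at 1.08 (adjusted p = 0.0050, SE 0.28) and Mrps24 at 0.88 (adjusted p = 0.0468, SE 0.29) in the authors' deposited table. edgeR called 0 of 78, beside 0.653% of all genes, with adjusted p of 0.142 and 0.245 for these genes and 8 members at an unadjusted p below 0.05, beside 12.1%. The number called by DESeq2 was 0 without young D11, without ATlo O10 or without the libraries tagged 12, and 1 without AThi O11, ATlo O11 or ATlo O12. The log2 fold change in the authors' deposited table was above 0 for 49 members and below 0 for 29. That is 37.2% below 0, beside 49.2% of all genes tested. The medians were 0.16 for the large and 0.19 for the small subunit, beside 0.01 for all genes tested. All ATlo libraries lay above both young libraries for 22 members, beside 16.1% of all genes, and below for 8, beside 15.2%. The 3 contrasts share libraries and 1 fit, so they are not independent of each other.

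By group means, 27 of 78 members (34.6%) were ordered AThi, young, ATlo from low to high, beside 18.2% of all genes. A further 19 (24.4%) were ordered AThi, ATlo, young, beside 14.1%, and 19 (24.4%) young, AThi, ATlo, beside 15.5%. The remaining 3 orders, in which ATlo was below AThi, held 7, 3 and 3 members. The first order held 13 of 29 small-subunit and 14 of 49 large-subunit genes, and whether the subunits differ in this was not tested.

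Proteins of the mitoribosome without an Mrp name were read beside the members. Dap3, Aurkaip1, Chchd1 and Ptcd3 belong to the small subunit and Gadd45gip1 to the large. None of the 5 was called in AThi against ATlo and all were below 0, with a median of -0.40 in the authors' deposited table. Ptcd3, a pentatricopeptide repeat protein, had 2358 and 2145 normalized counts in young HSCs, 1585, 1218 and 1507 in AThi, and 1805, 2040 and 1887 in ATlo. It was lower in AThi than in young at -0.65 (adjusted p = 0.0072, SE 0.18) and stood at -0.41 (adjusted p = 0.0837) against ATlo in the authors' deposited table. The edgeR test did not call it in AThi against young (adjusted p = 0.111).

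The factors that work on the mitoribosome gave other values. Of 30 genes for its assembly and ribosomal RNA modification, 1 was called lower and 0 higher in AThi against ATlo, with a median of 0.08 in the authors' deposited table. The 1 was C1qbp, a matrix protein that binds RNA and is needed for mitochondrial translation, with 4376 and 4182 normalized counts in young HSCs, 2764, 3259 and 3492 in AThi, and 4620, 4487 and 4739 in ATlo. All AThi libraries were the lowest, at -0.54 (adjusted p = 0.0008, SE 0.13) against ATlo and -0.43 (adjusted p = 0.0461) against young in the authors' deposited table. By edgeR C1qbp was called in neither contrast (adjusted p = 0.0651 and 0.204). Gtpbp10, a GTPase of large-subunit assembly, was lower in ATlo than in young at -0.55 (adjusted p = 0.0369) in the authors' deposited table. Neither the 15 translation factors (median -0.01) nor the 20 genes of mitochondrial aminoacyl-tRNA synthesis (median -0.10) held a called gene in AThi against ATlo in the authors' deposited table. Wars2, the mitochondrial tryptophanyl-tRNA synthetase, was higher in AThi than in young at 0.82 (adjusted p = 0.0018) in the authors' deposited table. By edgeR neither Gtpbp10 (adjusted p = 0.215) nor Wars2 (adjusted p = 0.0936) was called in these contrasts.

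The RNAs that the mitoribosome contains and translates held no called gene in AThi against ATlo. Of the 13 genes for proteins encoded by mitochondrial DNA, 7 were above 0 and 6 below in the authors' deposited table. Their median was 0.03, beside 0.02 for all genes tested. The 2 mitochondrial ribosomal RNAs had a median of 0.20 in the authors' deposited table. Among 15 factors of mitochondrial transcription and biogenesis 1 was called, Ppargc1a, which encodes the coactivator PGC-1 alpha. It had 179 and 224 normalized counts in young HSCs, 959, 291 and 245 in AThi, and 89.6, 69.9 and 18.7 in ATlo, and was higher in AThi at 3.07 (adjusted p = 5.3e-05, SE 0.62) in the authors' deposited table. The edgeR test did not call it (adjusted p = 0.0722). The median of the 15 was -0.15 in the authors' deposited table.

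Nuclear genes of the respiratory chain and ATP synthase were lower in AThi than in ATlo for 27 of 81 tested (33.3%) and higher for 0, with a median of -0.37 in the authors' deposited table. edgeR called 2 of the 81. Beside them stood the mitochondrial ribosomal protein genes, with a median of -0.30 and 10.3% called in the authors' deposited table and 0 called by edgeR. The standard errors differed, with a median of 0.24 for the mitochondrial ribosomal protein genes and 0.18 for the respiratory genes in the authors' deposited table. Of the 86 cytosolic ribosomal protein genes, 1 was called (Rps27l, lower), and their median was -0.02 in the authors' deposited table. These lists are set side by side as descriptions, and no test of their difference was made.

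**Figure D4:**
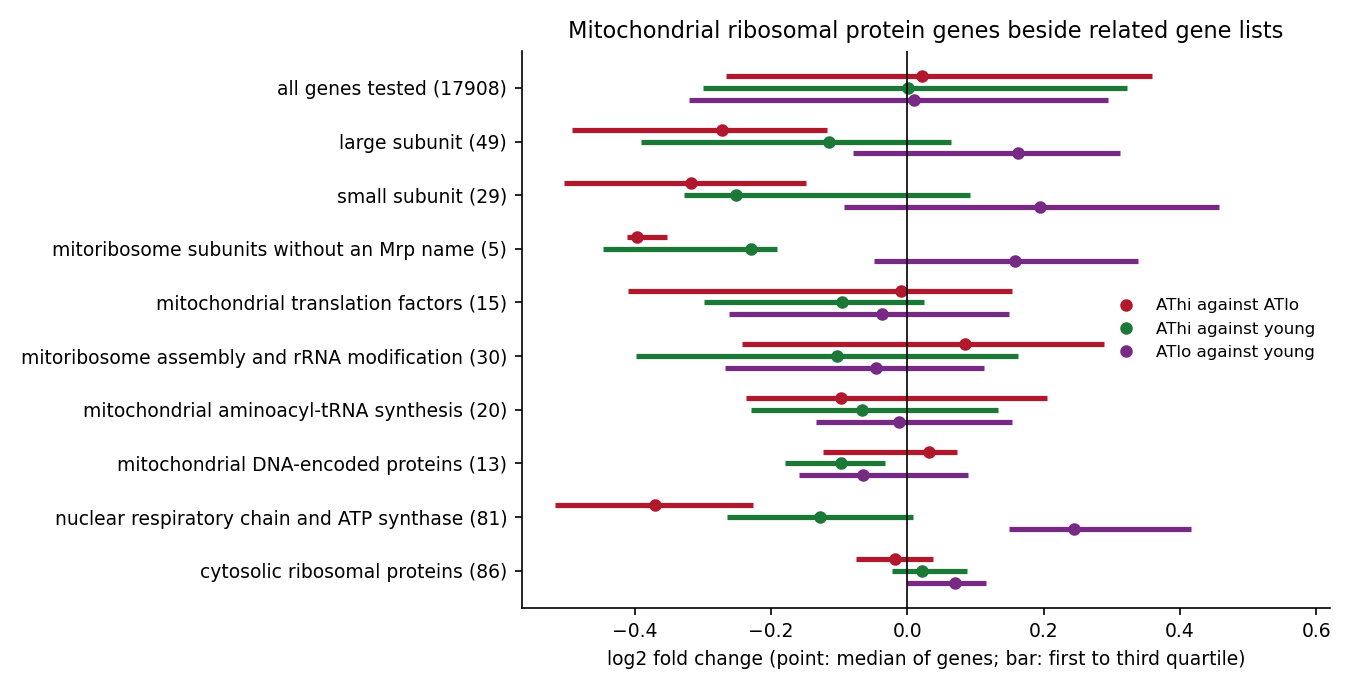
Log2 fold change (horizontal axis) of the mitochondrial ribosomal protein genes and of related lists in the 3 contrasts, with points for the median of the genes, bars from the first to the third quartile, and the number tested in AThi against ATlo in brackets. In AThi against ATlo the medians of the large subunit (-0.27), the small subunit (-0.32) and the nuclear respiratory genes (-0.37) lie below 0. The lowest median is that of the 5 mitoribosome subunits without an Mrp name (-0.40). Aminoacyl-tRNA synthesis is at -0.10, and the cytosolic ribosomal proteins (-0.02) lie near 0.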

How the data were processed

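The submitters' processing notes name the build GRCm38 and the tools STAR, featureCounts, DESeq2, FastQC and MultiQC; no source used here gives their versions, the annotation or the strand setting. The authors' deposited tables give, for 19909 genes and 3 contrasts, a log2 fold change with its SE, a Wald score, raw and adjusted p-values, and a normalized count signal per library; 73 genes had no p-value. The deposited test is the main one, with calls at an adjusted p below 0.05. Low-input libraries came from about 10000 HSCs and were prepared together, per the labels' protocols, after 2 sort days that the sources used here do not assign to libraries.

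Columns were matched to groups by name; their tags differ from the labels' replicate numbers. Undoing the scaling of each library returned whole reads (tolerance 0.01 of a read) for 100% of values. On these reads edgeR 4.0.16 (quasi-likelihood; 280 of 19903 genes called in AThi against ATlo) and DESeq2 1.42.0 were refitted in R 4.3.3, after tests on simulated data with 200 genes changed. Python 3.11.15 with pandas 2.3.3, numpy 2.4.6 and matplotlib 3.10.9 did the rest. Alternatives were scaling, filters, leaving out libraries and a block for the pair. The labels pair AThi and ATlo. Deviations from the group means correlated at 0.209, 0.164 and 0.373 for equal tags (across 13611 genes, which are not independent replicates) and at -0.232 to 0.030 for others. Within a group the deviations of a gene sum to 0, so positive values for equal tags push the others down. The gap between equal and other tags is therefore partly built in. Depths cover counting error only.

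Members, lists and the rule for named genes were chosen with earlier results of these data known. Named were called members, the 2 highest and 2 lowest changes of each subunit (base mean of 100 or more) and levels per length, 8 members for their roles, and up to 3 called genes of each list. A table of upstream regulators was not used. Other marker lists (erythroid, granulocyte, monocyte, megakaryocyte) are given under other observations.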

Additional observations from a re-analysis of the deposited data

How the results depend on the processing

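Counts of called members depended on the test. In AThi against ATlo the 8 became 0 with edgeR, with edgeR and the size factors of DESeq2, with edgeR without a filter, and with edgeR and the replicate block. DESeq2 with the replicate block called 8, with Mrpl12 in place of Mrps26 of the reported 8. In the same 6 libraries with no block it called 9, the reported 8 and Mrps11, of which 7 were also called with the block (not Mrps11 and Mrps26). Other scalings gave 8. Of the 45 members whose exons overlap no other gene, 8.89% were called, beside 7.9% of all genes tested. For fits with libraries left out, the share of all genes called is not given here. The count was 3 to 8 with 1 library left out, 1 without the 3 libraries tagged 12 and 4 without members whose exons overlap another gene, an alternative added after seeing the data. Against young, AThi gave 0 to 1 with 1 library left out. ATlo gave 0 with each edgeR setting, without the libraries tagged 12 and without overlapping members, 1 when scaled by reads outside ribosomal RNA, and 0 to 3 with 1 library left out. Medians with 1 library left out ran from -0.36 to -0.24, from -0.18 to -0.14 and from 0.10 to 0.17 in the 3 contrasts; the value nearest 0 in AThi against ATlo and in ATlo against young came without ATlo O12. The share ratio of the large subunit was 0.811 over all reads. Of named members, 5 values changed sign, all near 0. With 1 library left out Mrpl15 ran from -0.012 (AThi O10) to 0.26, Mrps12 from -0.32 to 0.00035 (AThi O10) and Mrpl34 from -0.27 to 0.044 (AThi O12). Without the libraries tagged 12, Mrpl34 stood at 0.092 and Mrpl52 at 0.00096. For these the cause was not tested. Of the other values of named members 369 kept direction and call, 74 kept the direction and lost the call, and 2 gained one. With 2 or 3 libraries a group, the standard errors on the log2 scale limit what could be detected. They ran from 0.14 to 0.49 in AThi against ATlo and from 0.16 to 0.54 in each contrast against young.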

Other observations

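Marker lists of other cell types are given as summed normalized counts for the libraries in which the members were read. Erythroid markers summed to 1770 and 4989 in young, 405 to 1981 in AThi and 849 to 3800 in ATlo. Granulocyte markers summed to 2687 and 2808 in young, 5503 to 6992 in AThi and 4094 to 6532 in ATlo. Monocyte markers summed to 9826 and 10250 in young, 8676 to 10707 in AThi and 9038 to 9117 in ATlo. Megakaryocyte markers summed to 3700 and 4059 in young, 9542 to 11310 in AThi and 9649 to 13828 in ATlo. Hba-a2, a globin gene, was at 0 in AThi O10 and AThi O11. The part of these cells in the values of the mitochondrial ribosomal protein genes was not tested.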
